A study of Mus musculus with 18 samples.

Results

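The mitotic programme of primary mouse hepatocytes was followed here through 49 listed genes of the G2 phase and of mitosis, namely mitotic cyclins, kinases, checkpoint, kinetochore, spindle, cytokinesis and chromosome structure genes. They were chosen by name and where a gene had several probe sets, the one with the highest average on the 18 Affymetrix arrays was read. Of the 49 genes, 48 were measured among 18194 genes in all. The exception was Ccnb1, the gene of cyclin B1, which had only probe sets shared with other symbols and is not reported. Of the 48 measured genes, 29 had a mean level above the median gene, 10 lay under the 40th percentile and 1, Depdc1a, lay under the 10th percentile.

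Hepatocytes came from male C57BL/6N mice 8 to 12 weeks old, and each preparation was 1 animal or a pool of up to 3. The cells attached to collagen I below confluence, were then held in a serum-free medium that contained dexamethasone, and were starved without dexamethasone before stimulation. Human recombinant IL-6, the cytokine that starts the hepatic acute-phase response through STAT3, was present from 0 h at 40 ng/ml. Mouse recombinant HGF, a hepatocyte growth factor that signals through the receptor Met, joined it from 4 h, also at 40 ng/ml. Unstimulated control cells were measured at -5, 0, 4, 8, 12 and 24 h, IL-6 alone at 1, 2, 3 and 4 h, and both factors together at 5, 6, 7, 8, 9, 10, 12 and 24 h. Neither IL-6 alone after 4 h nor HGF alone was analysed here. Each condition and hour had 1 array, so neighbouring hours took the place of replicates. The labels do not say whether the arrays stand for separate animals, so the p-values reflect the spread among these arrays alone, which may be technical. Where a fit pools several hours, that spread also holds the change between them. The values are log2 levels, so a difference of 1 is a doubling of the signal. Fits were made with limma over all 18194 genes, the p-values were adjusted over all of them by the Benjamini-Hochberg method, and 0.05 was the threshold throughout.

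Cells that commit to division first copy their DNA and then, in G2, make the proteins of mitosis. Cyclin A2 and the B cyclins activate the kinase Cdk1, the CDC25 phosphatases remove its inhibitory phosphates, and Polo-like and Aurora kinases carry the signal to spindle and chromosomes. The spindle checkpoint then holds the anaphase-promoting complex until every kinetochore is attached, and cytokinesis splits the cell. Hepatocytes of the adult liver are quiescent and often polyploid, and they re-enter the cycle after partial hepatectomy, where IL-6 and HGF are known as a priming and a growth signal. Genes of this phase are known to be held off in quiescent cells by the DREAM complex and switched on by B-MYB, MuvB and FOXM1 through a cell cycle homology region, a short promoter element with the letters TTTGAA or TTTAAA, often next to CCAAT boxes bound by NF-Y.

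Promoter letters are shown for a few genes on which the results turn, because this shared element is a feature that the choice of the genes did not use. RefSeq promoter windows (GRCm38.p6, 250 bases before to 50 after the annotated start) were found for 40 of the 49 genes, in 42 windows, since Ect2 and Prc1 have 2 each. TTTGAA on either strand stood in 76.2% of the 42 windows and in 17.9% of all 32851 windows of the same length. TTTAAA, which reads the same on both strands, stood in 21.4% and 13.2%. Either letter set within 50 bases of the start stood in 76.2% of the windows of these genes and in 8.28% of all windows. CCAAT on either strand stood in 81% against 37.4%, and at least 2 copies in 50% against 11.7%. Both features together stood in 42.9% against 0.989%. These are descriptions of letters, not of bound sites, and neither strand nor spacing was matched.

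The 6 stretches below run from 120 bases before to 30 bases after the start and are given 5′ to 3′ on the gene's strand. Capitals mark the letters searched, which are TTTGAA with its complement TTCAAA. They also mark TTTAAA, and CCAAT with its complement ATTGG. Ccnb2, Cdk1, Plk1, Cdc20 and Top2a are shown as genes whose values are followed below, and Birc5 as a gene that also reached its highest levels at 24 h and has none of these letters in the stretch.
Ccnb2 (chr9:70421525-70421674, minus strand): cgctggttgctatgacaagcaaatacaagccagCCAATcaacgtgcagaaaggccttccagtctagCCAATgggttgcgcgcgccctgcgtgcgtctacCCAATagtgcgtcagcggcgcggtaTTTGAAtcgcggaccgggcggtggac
Cdk1 (chr10:69352883-69353032, minus strand): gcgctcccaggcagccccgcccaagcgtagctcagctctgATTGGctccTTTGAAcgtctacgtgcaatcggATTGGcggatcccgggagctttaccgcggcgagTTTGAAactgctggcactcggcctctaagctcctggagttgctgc
Plk1 (chr7:122159315-122159464, plus strand): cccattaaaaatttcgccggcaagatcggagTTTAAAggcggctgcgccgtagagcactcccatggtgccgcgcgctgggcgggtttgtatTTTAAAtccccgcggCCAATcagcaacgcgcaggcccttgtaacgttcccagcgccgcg
Cdc20 (chr4:118437314-118437463, minus strand): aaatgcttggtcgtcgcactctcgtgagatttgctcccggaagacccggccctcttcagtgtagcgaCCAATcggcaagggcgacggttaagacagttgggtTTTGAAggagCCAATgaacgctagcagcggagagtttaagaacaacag
Top2a (chr11:99024160-99024309, minus strand): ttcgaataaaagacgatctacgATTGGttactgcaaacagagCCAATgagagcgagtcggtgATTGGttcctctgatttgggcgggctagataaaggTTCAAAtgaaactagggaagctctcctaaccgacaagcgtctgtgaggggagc
Birc5 (chr11:117849117-117849266, plus strand): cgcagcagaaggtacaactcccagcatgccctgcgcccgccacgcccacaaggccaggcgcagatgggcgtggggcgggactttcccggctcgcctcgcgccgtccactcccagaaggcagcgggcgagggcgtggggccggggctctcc
Positive positions count the start base itself, and negative ones count back from the base before it. TTTGAA began at 5 in Ccnb2, at -71 and -15 in Cdk1, at -18 in Cdc20 and at -23 in Top2a. Plk1 held TTTAAA at -89 and -29. CCAAT letters stood at -87, -54 and -21 in Ccnb2, and at -80 and -48 in Cdk1. Outside the stretches shown, TTTGAA also began at -167 in Ccnb2, at 31 in Plk1 and at -179 in Top2a. The only TTTAAA of Birc5 lay at -220, also outside its stretch. Nuf2, Nek2, Nusap1, Bub1, Cdc25b, Melk, Kif2c, Mad2l1, Mki67 and Birc5 were the 10 genes with a window and neither TTTGAA nor TTTAAA within 50 bases of the start.

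On all arrays together, the G2 and mitosis genes followed the hours in culture. All 48 had both 24 h arrays, control and IL-6 plus HGF, above each of the other 16 arrays, which held for 10.2% of all genes. For 43 of 48 the gap was at least 1 log2 unit (0.698% of all genes), the exceptions being Cdc25b, Cdc25c, Foxm1, Dlgap5 and Smc4. In unstimulated control cells the median gene stood 0.33 above its 0 h level at 4 h, 0.88 at 8 h, 1.35 at 12 h and 3.23 at 24 h on the log2 scale. A median difference of 3.23 is a 9.37-fold higher level at 24 h than at 0 h, with extremes of 1.52-fold for Foxm1 and 34.9-fold for Nusap1. In 42 of 48 genes each control hour from 0 to 24 h was higher than the one before (5.57% of all genes). At 12 h, 35 of 48 were at least 1 log2 unit above control at 0 h (1.06% of all genes). The last step, from 12 to 24 h, was at least 1 log2 unit in 46 genes in control (1.53% of all genes) and in 45 with IL-6 plus HGF (1.72%). By 12 h control cells had covered a median of 42.4% of the 0 to 24 h difference, from 24% for Cenpe to 60.3% for Birc5. With IL-6 plus HGF the median gene stood 0.46 above control at 0 h at 5 h, 1.18 at 12 h and 3.01 at 24 h. In such bulk samples a change in the number of cells of a type and a change in RNA per cell cannot be told apart.

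**Figure D1:**
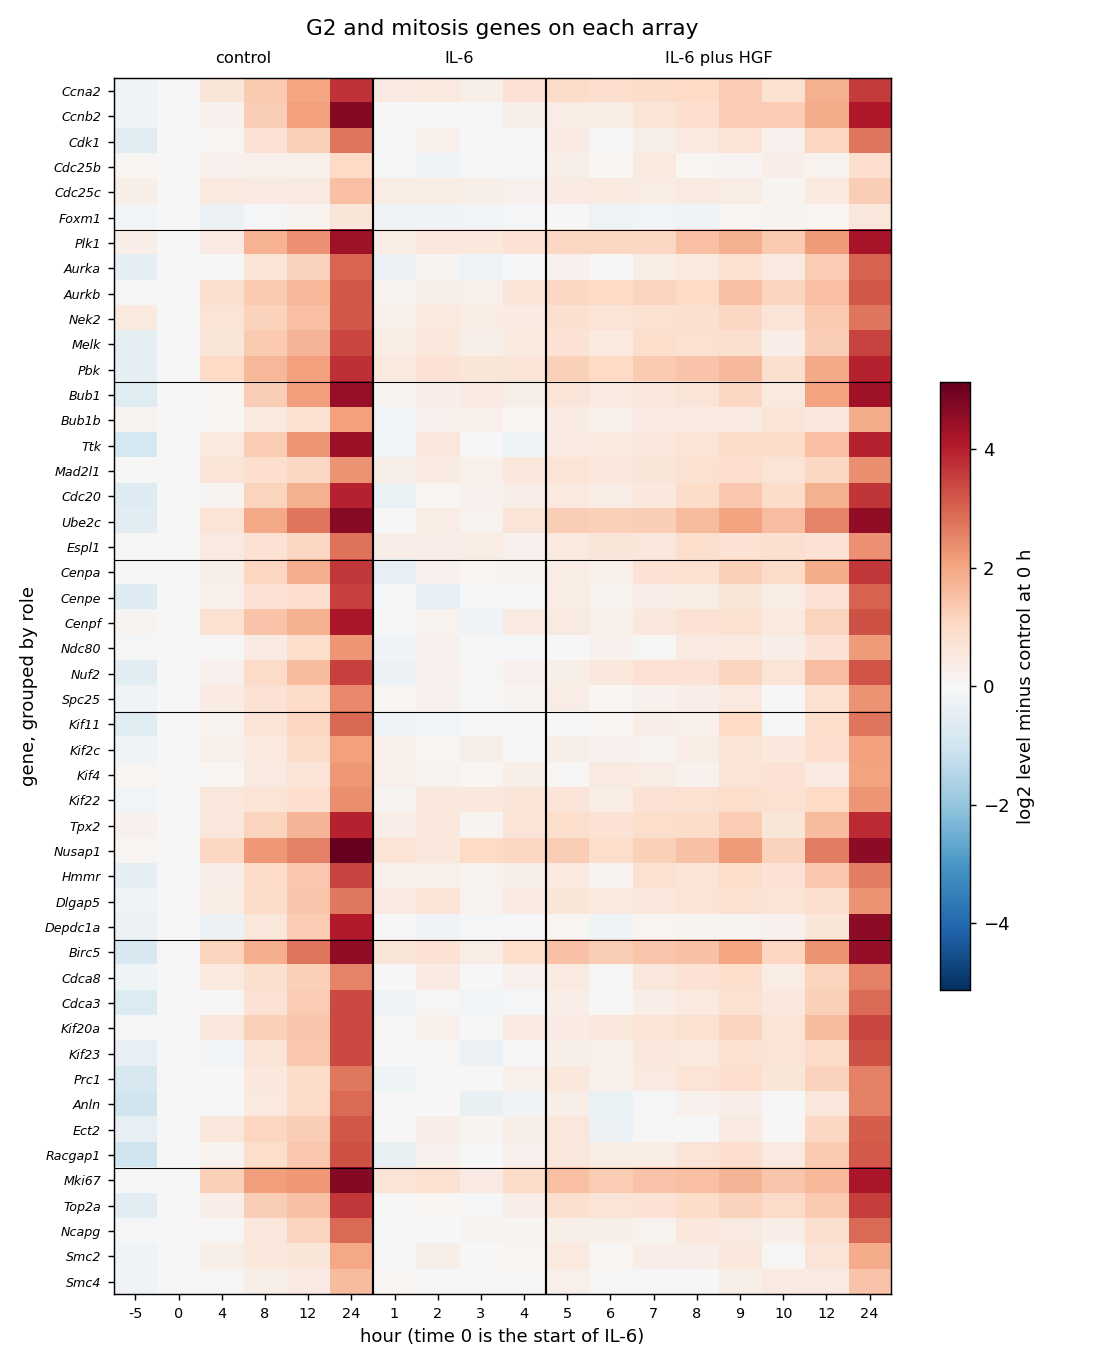
Levels of the 48 G2 and mitosis genes on each of the 18 arrays, as the log2 level minus that of control at 0 h (colour), with genes in rows by role and arrays in columns by condition and hour. The 2 columns at 24 h are the darkest in every row, and the medians over the 48 genes there are 3.23 in control and 3.01 with IL-6 plus HGF.

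The rise between 8 to 12 h and 24 h passed the test in both conditions. In control cells 47 of 48 genes were higher at 24 h than at 8 and 12 h (background 2.15% of all genes higher and 0.94% lower), with a median difference of 2.04 log2 against -0.04 over all genes. With IL-6 plus HGF 47 of 48 were higher at 24 h than at 8, 9, 10 and 12 h (background 5.01% higher and 2.01% lower), with a median of 2.28 against -0.05. Foxm1 was the exception in both, with 0.58 (adjusted p = 0.148) in control and 0.55 (adjusted p = 0.0868) with IL-6 plus HGF. Each 24 h cell is a lone array assumed to vary like the others. The control call rests on few arrays, and fewer genes were called when the 8 h or the 12 h control was left out. Calls over all genes in those fits are not given here, so the drop cannot be assigned to these genes.

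**Figure D2:**
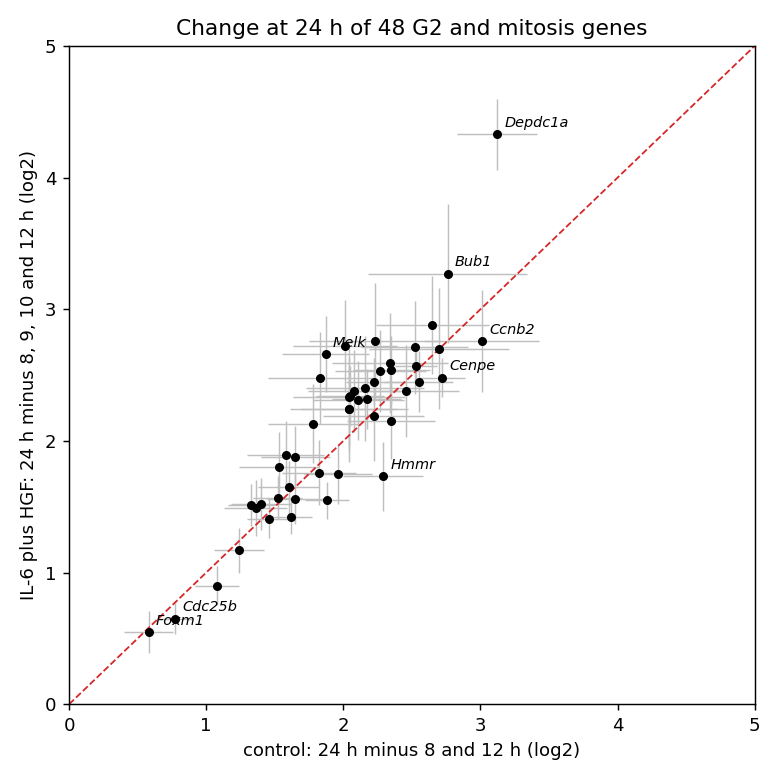
Difference between 24 h and the earlier hours for each of the 48 genes, in control (x axis, log2, 24 h minus the mean of 8 and 12 h) and with IL-6 plus HGF (y axis, log2, 24 h minus the mean of 8, 9, 10 and 12 h). Bars are standard errors of the limma fit and the dashed line marks equal change, with Depdc1a (3.12 and 4.33) farthest above it and Foxm1 (0.58 and 0.55) lowest on both axes.

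Cyclins, Cdk1 and its switches differed widely among themselves, with 24 h differences from 0.58 to 3.01 in control and from 0.55 to 2.76 with IL-6 plus HGF. Of the 6 measured genes 5 passed the 24 h test in each condition, with a median difference of 1.43 in control and 1.52 with IL-6 plus HGF. Ccna2, the cyclin of S phase and G2, read 6.74, 6.95, 7.59, 8.30, 8.96 and 10.67 in control at -5, 0, 4, 8, 12 and 24 h. With IL-6 alone it read 7.41, 7.44, 7.27 and 7.70 at 1, 2, 3 and 4 h. The lowest, median and highest of the 5 to 12 h arrays with IL-6 plus HGF were 7.72, 7.88 and 8.79, and the 24 h array read 10.52. The 24 h arrays of both conditions were thus the 2 highest for Ccna2, and control at 12 h was the next. Ccnb2, cyclin B2, read 5.42, 5.64, 5.86, 6.89, 7.76 and 10.33 over the 6 control hours, 5.64, 5.64, 5.53 and 5.94 over the 4 IL-6 hours, 6.03, 6.51 and 7.55 as lowest, median and highest of 5 to 12 h with IL-6 plus HGF, and 9.74 at its 24 h. This was the steepest of the group, 25.9-fold higher in control at 24 h than at 0 h, and its 24 h difference was 3.01 ± 0.42 (SE, adjusted p = 0.00956) in control and 2.76 ± 0.39 (adjusted p = 0.00424) with IL-6 plus HGF. Cdk1, the kinase these cyclins activate, read 7.35, 7.91, 8.00, 8.65, 9.13 and 10.67 in control and 7.86, 8.16, 7.87 and 7.97 with IL-6. Its lowest, median and highest before 24 h with IL-6 plus HGF were 7.97, 8.34 and 9.02, and its 24 h value was 10.67, the same as in control at this precision.

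Foxm1, a transcription factor of late cell cycle genes, moved least. It read 6.98, 7.14, 6.83, 7.03, 7.32 and 7.75 in control, 6.94, 6.96, 6.98 and 7.04 with IL-6, and 6.88, 7.13 and 7.28 as lowest, median and highest of 5 to 12 h with IL-6 plus HGF, with 7.74 at 24 h. Its values before 24 h overlapped between all conditions. Its other 3 probe sets, all with lower mean levels, had 24 h differences of 0.75, 2.01 and 0.02 in control and of 0.74, 1.78 and -0.17 with IL-6 plus HGF, so 1 of the 4 changed by more than 1 log2 unit. Cdc25b and Cdc25c, the phosphatases that switch Cdk1 on, had low levels, with all arrays between 4.34 and 5.61 and between 4.25 and 5.79. Their 24 h differences were 0.77 and 1.08 in control and 0.65 and 0.90 with IL-6 plus HGF, all past the threshold.

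**Figure D3:**
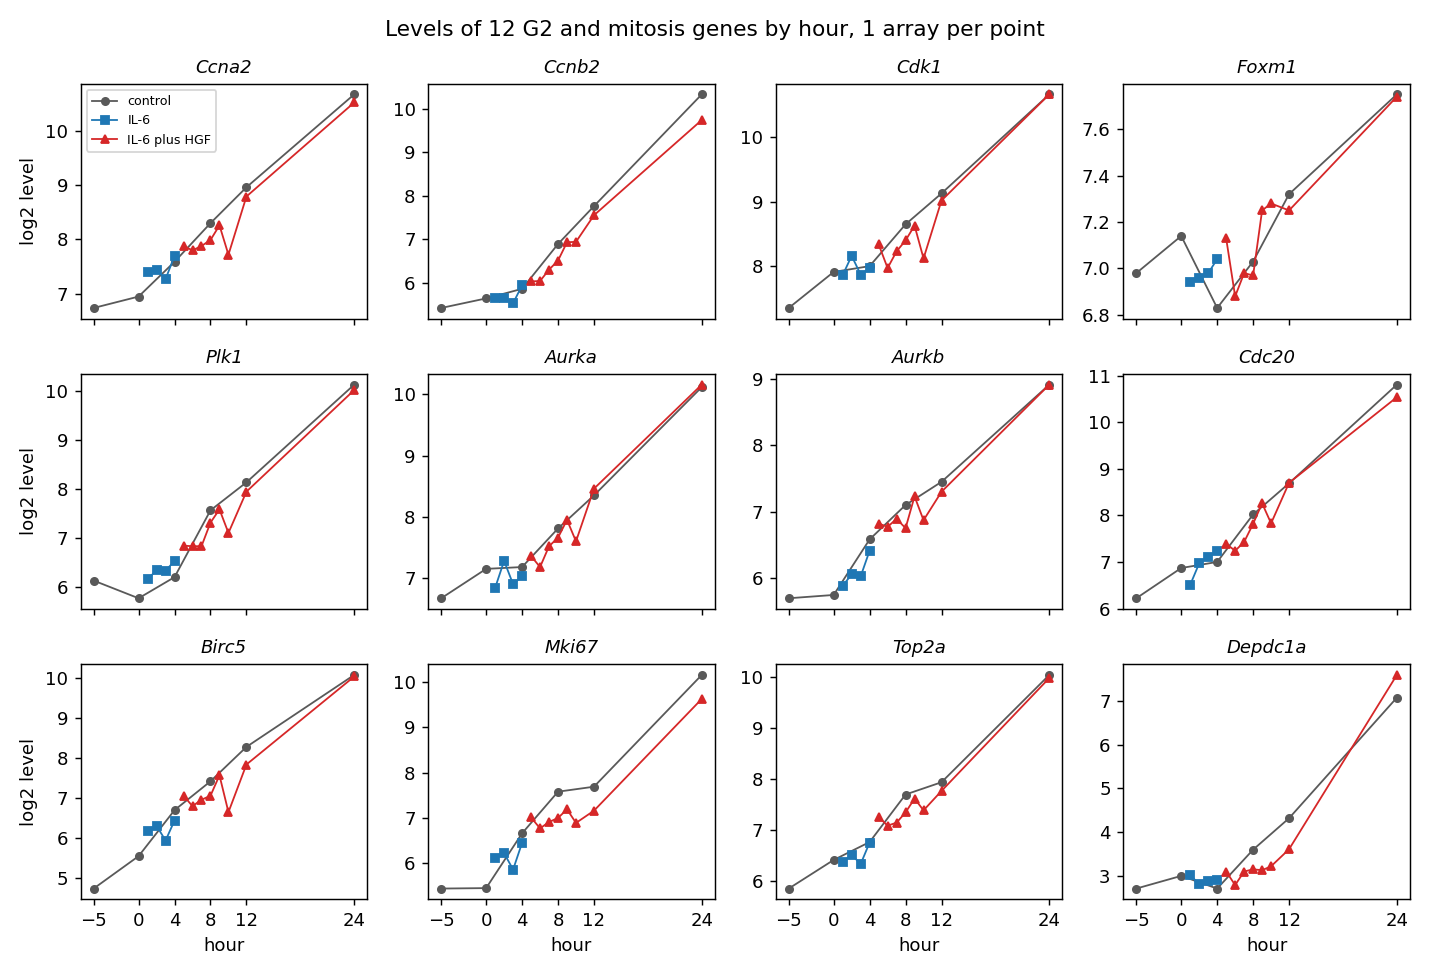
Log2 levels (y axis, scaled per gene) of 12 G2 and mitosis genes by hour (x axis), 1 array per point, in control (grey circles), IL-6 (blue squares) and IL-6 plus HGF (red triangles). In each panel the 24 h points are the highest. At 12 h Cdk1 read 9.02 with IL-6 plus HGF and 9.13 in control. Among the 12 genes the 12 h gap, IL-6 plus HGF minus control, ran from -0.71 for Depdc1a to 0.12 for Aurka.

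The 6 mitotic kinases all passed the 24 h test in both conditions, with medians of 1.85 in control and 2.36 with IL-6 plus HGF. Plk1, the Polo-like kinase of mitotic entry, read 6.13, 5.77, 6.20, 7.56, 8.13 and 10.12 in control and 6.16, 6.34, 6.33 and 6.53 with IL-6. Under IL-6 plus HGF it ran from 6.83 over a median of 7.10 to 7.94 before 24 h and reached 10.01 at 24 h. Control at 24 h exceeded control at 0 h by 20.4-fold, the widest span among these 6 kinases. Aurka, the Aurora kinase of centrosomes and spindle poles, read 6.67, 7.15, 7.18, 7.81, 8.35 and 10.12 in control, 6.84, 7.28, 6.90 and 7.03 with IL-6 alone and, after HGF was added, 7.18, 7.60 and 8.46 as lowest, median and highest before 24 h and 10.16 at 24 h. Its control levels at 0 and 4 h were nearly equal, and 8 h was the first clearly higher hour. Aurkb, the Aurora kinase of the chromosomal passenger complex, read 5.69, 5.74, 6.58, 7.10, 7.45 and 8.92 in control and 5.88, 6.05, 6.02 and 6.41 with IL-6. The corresponding Aurkb values with IL-6 plus HGF were 6.75, 6.87 and 7.30 before 24 h and 8.92 at 24 h. Unlike Aurka, Aurkb was already higher at 4 h than at 0 h in control. Melk, a kinase of proliferating and progenitor cells, read 4.76, 5.25, 5.88, 6.61, 6.99 and 8.68 in control, 5.65, 5.80, 5.56 and 5.77 with IL-6, 5.58, 6.05 and 6.50 as lowest, median and highest of 5 to 12 h with IL-6 plus HGF, and 8.71 at its 24 h. Pbk, a mitotic kinase of the MAPKK family, read 6.22, 6.69, 7.70, 8.38, 8.79 and 10.42, 7.19, 7.44, 7.30 and 7.37, 7.51, 8.02 and 8.62 and 10.64 in the same order. For both, the 10 h array with IL-6 plus HGF was the lowest of the 5 to 12 h arrays. Nek2, a centrosome kinase, had 24 h differences of 1.82 ± 0.27 in control and 1.76 ± 0.25 with IL-6 plus HGF (SE).

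The spindle checkpoint and anaphase genes held the highest median difference of the 7 roles in control between 0 and 24 h, 3.94 log2 or 15.4-fold, and all 7 genes passed the 24 h test in both conditions. Bub1, a checkpoint kinase at kinetochores, read 3.52, 4.13, 4.25, 5.38, 6.29 and 8.59 in control and 4.27, 4.48, 4.55 and 4.44 with IL-6. Before 24 h with IL-6 plus HGF its lowest, median and highest were 4.60, 4.78 and 6.18, and its 24 h value was 8.48. The control level was 22.1-fold higher at 24 h than at 0 h, and the IL-6 plus HGF level was 13.0-fold higher at 24 h than at 5 h. Ttk, the MPS1 kinase that starts checkpoint signalling, read 4.21, 5.10, 5.59, 6.41, 7.37 and 9.54 in control, 4.97, 5.70, 5.14 and 4.88 with IL-6, 5.54, 5.81 and 6.66 before 24 h with IL-6 plus HGF (lowest, median, highest) and 9.03 at 24 h. It was lower with IL-6 plus HGF than in control at each shared hour. Cdc20, the activator of the anaphase-promoting complex that the checkpoint holds back, read 6.22, 6.87, 7.00, 8.02, 8.69 and 10.81 in control and 6.51, 6.97, 7.11 and 7.23 with IL-6. The Cdc20 values with IL-6 plus HGF were 7.24, 7.82 and 8.70 before 24 h and 10.54 at 24 h. At 12 h the 2 conditions were nearly equal, 8.69 in control and 8.70 with IL-6 plus HGF. Ube2c, the ubiquitin-conjugating enzyme that works with that complex, read 5.67, 6.21, 6.90, 8.14, 8.94 and 10.88 in control, 6.18, 6.59, 6.41 and 6.89 with IL-6, 7.43, 7.81 and 8.74 before 24 h with IL-6 plus HGF and 10.75 at 24 h. Ube2c had the largest control difference of this role at 12 h, 2.72 above 0 h. Bub1b, Mad2l1 and Espl1 (BubR1, Mad2 and separase) changed less, with 24 h differences of 1.46, 1.33 and 1.88 in control and of 1.41, 1.51 and 1.55 with IL-6 plus HGF, all past the threshold.

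At the centromere and kinetochore all 6 genes passed the 24 h test in both conditions, with medians of 2.19 in control and 2.29 with IL-6 plus HGF. Cenpa, the histone H3 variant of centromeres, read 5.82, 5.84, 6.14, 6.94, 7.69 and 9.47 in control, 5.41, 6.05, 5.94 and 6.03 with IL-6, 6.09, 6.63 and 7.73 as lowest, median and highest before 24 h with IL-6 plus HGF, and 9.46 at 24 h. Control and IL-6 plus HGF were nearly equal at 12 and 24 h. Cenpe, the kinetochore motor that moves chromosomes to the spindle equator, read 4.59, 5.26, 5.51, 6.02, 6.11 and 8.78 in control and 5.17, 4.82, 5.19 and 5.18 with IL-6. Its IL-6 plus HGF values were 5.46, 5.65 and 5.99 before 24 h and 8.27 at 24 h. Cenpe had covered the smallest share of its control difference by 12 h, since control at 12 h was 0.84 above 0 h and control at 24 h was another 2.67 higher. Cenpf, a large kinetochore and nuclear matrix protein of G2, read 4.60, 4.44, 5.23, 5.91, 6.26 and 8.63 in control, 4.40, 4.61, 4.26 and 4.90 with IL-6, 4.70, 5.00 and 5.59 before 24 h with IL-6 plus HGF, and 7.70 at 24 h. Cenpf was lower with IL-6 plus HGF by 0.71, 0.66 and 0.93 at 8, 12 and 24 h. Ndc80, Nuf2 and Spc25, 3 subunits of the complex that binds microtubule ends, had control differences at 24 h of 1.60, 2.22 and 1.58, and of 1.65, 2.19 and 1.89 with IL-6 plus HGF.

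Spindle motors and assembly factors numbered 9, and all passed the 24 h test in both conditions, with medians of 2.04 in control and 1.73 with IL-6 plus HGF. Tpx2, which activates Aurora A on the spindle, read 5.65, 5.44, 6.03, 6.57, 7.17 and 9.40 in control, 5.78, 5.97, 5.60 and 6.10 with IL-6, 6.05, 6.36 and 7.06 before 24 h with IL-6 plus HGF and 9.27 at 24 h. Nusap1, a microtubule protein of spindle and nucleolus, read 4.75, 4.65, 5.71, 6.89, 7.25 and 9.78 in control and 5.35, 5.20, 5.66 and 5.70 with IL-6. For IL-6 plus HGF the lowest, median and highest Nusap1 values before 24 h were 5.55, 5.90 and 7.29, and the value at 24 h was 9.23. It had the widest control span of the 48 genes, 5.13 log2 between 0 and 24 h. Dlgap5, which stabilises kinetochore microtubules, read 5.54, 5.72, 6.12, 6.68, 7.13 and 8.42 in control, 6.16, 6.37, 5.90 and 6.16 with IL-6, 6.21, 6.40 and 6.54 before 24 h with IL-6 plus HGF, and 8.04 at 24 h. Depdc1a was at the low end of the array before 24 h. It read 2.71, 3.00, 2.71, 3.60, 4.32 and 7.08 in control, 3.02, 2.81, 2.89 and 2.90 with IL-6, 2.79, 3.13 and 3.61 before 24 h with IL-6 plus HGF, and 7.60 at 24 h. The 12 h level with IL-6 plus HGF was under the 10th percentile of gene means (3.63), and whether it lay above background was not tested, so no fold over it is given. The motors Kif11, Kif2c, Kif4 and Kif22 and the hyaluronan receptor and spindle protein Hmmr had 24 h differences from 1.36 (Kif2c) to 2.29 (Hmmr) in control and from 1.42 (Kif22) to 2.24 (Kif11) with IL-6 plus HGF.

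Chromosomal passenger and cytokinesis genes also numbered 9 and all passed in both conditions, with medians of 2.11 in control and 2.32 with IL-6 plus HGF. Birc5, survivin, read 4.74, 5.55, 6.70, 7.42, 8.28 and 10.08 in control, 6.17, 6.31, 5.94 and 6.44 with IL-6, 6.65, 7.06 and 7.84 before 24 h with IL-6 plus HGF and 10.04 at 24 h. Birc5 was the gene with the largest control difference at 12 h, 2.73 above 0 h. Anln, which scaffolds the contractile ring, read 6.85, 7.89, 7.82, 8.41, 8.87 and 10.80 in control and 7.86, 7.93, 7.49 and 7.70 with IL-6. Its IL-6 plus HGF values were 7.53, 8.11 and 8.46 before 24 h and 10.48 at 24 h. Among control hours -5 h was the lowest, and 0 and 4 h were nearly equal. Ect2, which is needed for cytokinesis, read 6.11, 6.52, 7.11, 7.62, 7.77 and 9.71 in control, 6.55, 6.86, 6.66 and 6.83 with IL-6, 6.20, 6.59 and 7.58 before 24 h with IL-6 plus HGF, and 9.64 at 24 h. At 8 h Ect2 was 1.12 lower with IL-6 plus HGF than in control, the largest gap of the 48 genes at any shared hour, while at 24 h it was 0.07 lower. Kif20a, Kif23, Racgap1 and Prc1, which build the central spindle, Cdca8, the borealin subunit of the passenger complex, and Cdca3 had 24 h differences from 1.53 (Cdca8) to 2.35 (Cdca3 and Kif23) in control and from 1.75 (Prc1) to 2.54 (Kif23) with IL-6 plus HGF.

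All 5 chromosome structure genes passed in both conditions, with medians of 2.05 in control and 2.34 with IL-6 plus HGF. Mki67, the Ki-67 protein that coats mitotic chromosomes and is used as a proliferation marker, read 5.44, 5.45, 6.66, 7.58, 7.69 and 10.16 in control and 6.11, 6.22, 5.86 and 6.45 with IL-6. After HGF was added it ran from 6.77 over a median of 7.00 to 7.19 before 24 h and read 9.63 at 24 h. Its 24 h differences, 2.53 ± 0.15 (SE, adjusted p = 0.000378) in control and 2.57 ± 0.14 (adjusted p = 0.000442) with IL-6 plus HGF, were among those with the smallest p-values. Top2a, the topoisomerase that untangles sister chromatids, read 5.86, 6.42, 6.77, 7.70, 7.94 and 10.04 in control, 6.38, 6.52, 6.34 and 6.76 with IL-6, 7.09, 7.35 and 7.77 before 24 h with IL-6 plus HGF and 9.98 at 24 h. Top2a levels in the 2 conditions differed by 0.06 at 24 h. The condensin genes Ncapg, Smc2 and Smc4, which compact chromosomes, had control differences of 2.05, 1.40 and 1.24 and IL-6 plus HGF differences of 2.34, 1.52 and 1.17.

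The design also asks whether the change at 24 h differed between IL-6 plus HGF and control. The difference of the 2 changes passed the test for 0 of 48 genes in limma (0.0165% of all genes higher and 0.0055% lower), and 1 gene, Depdc1a with 1.21 ± 0.40 (SE), had an unadjusted p under 0.05 (3.88% of all genes). The values ran from -0.56 for Hmmr to 1.21, with a median of 0.17. The 95% intervals of the 48 genes had a median half-width of 0.88 log2.

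At the hours measured in both conditions, 8, 12 and 24 h, levels with IL-6 plus HGF mostly lay a little below those in control. In a fit with hour as a block 6 genes were lower (12.5% of 48, background 6.45% of all genes lower) and 0 were higher (background 2.53%). Under other scalings the share called lower was close to that of all genes, as given below. Cenpf was lower by 0.77 log2 or 1.70-fold (adjusted p = 0.00529), Ttk by 0.60 or 1.52-fold (adjusted p = 0.00831) and Mki67 by 0.55 or 1.46-fold (adjusted p = 0.00875). Dlgap5 with -0.40, Ccnb2 with -0.39 and Anln with -0.34 had adjusted p-values of 0.0423, 0.0496 and 0.0371. The median over the 48 genes was -0.19 against 0.01 over all genes, and 22 genes had an unadjusted p under 0.05 (45.8% against 24.9% of all genes). By hour, 42 genes were lower at 8 h, 38 at 12 h and 38 at 24 h, against 49.9%, 49.9% and 48.9% of all genes. In 28 of 48 genes (58.3%, against 24.6% of all genes) IL-6 plus HGF was lower at all 3 hours. The gap was small beside the change with time: the 8, 12 and 24 h medians were -0.26, -0.16 and -0.12.

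The matched-hour calls at 8, 12 and 24 h rested on 6 arrays with 2 residual degrees of freedom. Without the 24 h pair, on 4 arrays with 1 residual degree of freedom, 5 genes were lower (background 3.03%), Cenpf, Ttk, Mki67, Depdc1a and Melk, and 0 were higher (background 1.14%). With all 3 hours the number called was 3 after quantile normalization, 3 with array medians centred and 0 without the hour block, and it was 3 without the 8 h pair. With these 2 scalings the calls over all genes moved from 460 higher and 1174 lower to 553 and 873, and to 674 and 894. Under each scaling 3 of 48 genes were thus lower, against 873 and 894 of 18194, a share close to that of all genes. The median over the 48 genes stayed lower, at -0.16 against 0.02 over all genes after quantile normalization. With array medians centred it was -0.13 against 0.06. Other probe sets of Cenpf differed by 0.14 and -0.22 and the other Ttk probe set by -0.09, whereas those of Dlgap5 and Anln differed by -0.19 and -0.07. Among the 31 genes with more than 1 probe set, 15 had all of them in the same direction in this comparison, 24 in the control 24 h change and 20 in the IL-6 plus HGF 24 h change.

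**Figure D4:**
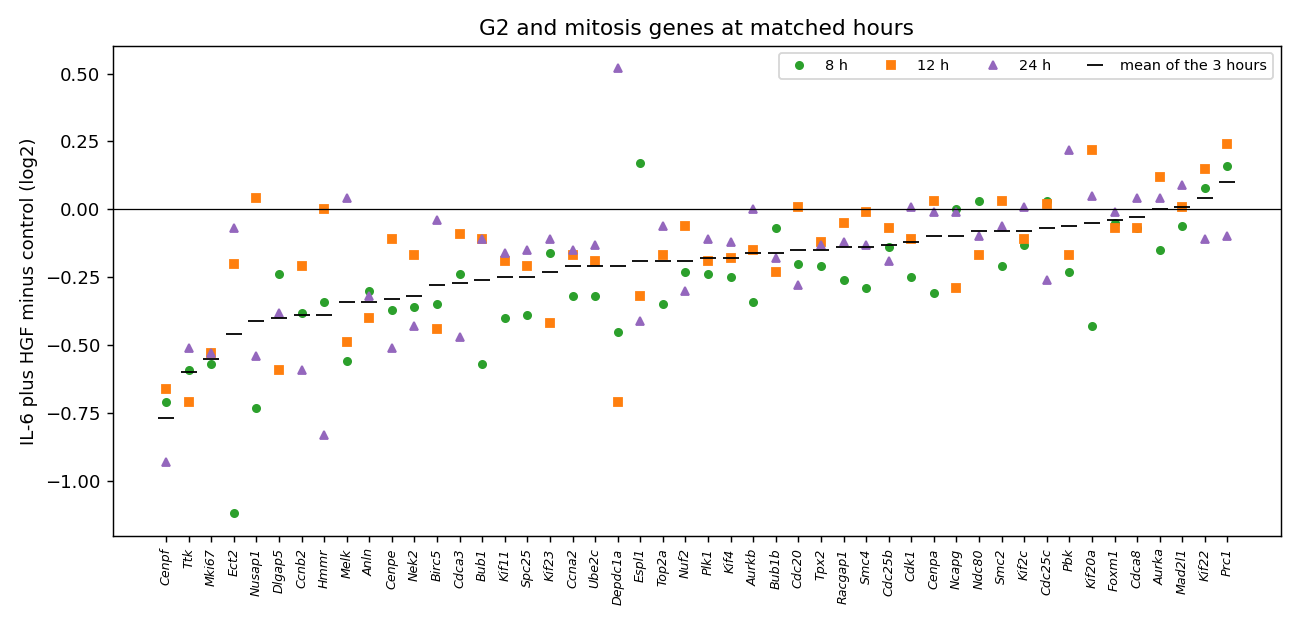
Log2 level with IL-6 plus HGF minus control for each of the 48 genes (x axis, ordered by the mean of the 3 hours) at 8 h (circles), 12 h (squares) and 24 h (triangles), with the mean as a bar. Most points lie below 0, 42 at 8 h, 38 at 12 h and 38 at 24 h, and the means run from -0.77 for Cenpf to 0.10 for Prc1.

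IL-6 alone was compared with control at 0 and 4 h, and 0 of 48 genes passed the test in either direction (background 0.022% higher and 0% lower). Of the 48, 0 had an unadjusted p under 0.05, against 3.61% of all genes. The differences ran from -0.30 for Cenpe to 0.36 for Plk1, with a median of 0.02. In that fit the 24 h arrays widened the intervals to a median half-width of 1.38, and without them it was 0.45. Without those arrays 0 genes were again called (background 0.033% higher and 0.0055% lower), and 1 had an unadjusted p under 0.05 (5.31% of all genes). On the 6 arrays of 0 to 4 h with hour as a covariate the half-width was 0.27, and 6 genes had an unadjusted p under 0.05 (9.04% of all genes) but 0 passed. In 24 of 48 genes (50%, against 28.1% of all genes) control at 4 h lay above all 4 IL-6 arrays, which were taken at 1 to 4 h. The hours of the 2 groups are not matched except at 4 h, where the median gene stood 0.33 above control at 0 h in control and 0.24 with IL-6.

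Time trends were read with and without the 24 h arrays. With IL-6 plus HGF all 48 slopes on log2 hours were positive, with a median of 1.17 log2 per doubling of the hour. Of these, 46 passed as rising (background 6.25% of all genes rising and 4.84% falling). Cdc25b (0.24, adjusted p = 0.173) and Cdc25c (0.34, adjusted p = 0.0786) did not pass. Without the 24 h array 5 genes passed (background 0.275% rising and 1.07% falling), Ccnb2 with a slope of 1.23, Cenpa with 1.15, Cdc20 with 1.05, Ttk with 0.82 and Kif23 with 0.56, and the median slope was 0.47. In control, on log2 of the hour plus 1, 12 genes passed with the 24 h array (background 2.14% rising and 1.46% falling), namely Ccna2, Plk1, Aurkb, Nek2, Melk, Pbk, Mad2l1, Ube2c, Nusap1, Dlgap5, Birc5 and Mki67. Without it 25 passed (background 2.15% rising and 1.51% falling), Mki67 with a slope of 0.63 and an adjusted p of 0.00466 among them. The median control slope was 0.62 with and 0.33 without the 24 h array. Slopes of the 2 conditions cover unlike hours on unlike time scales, so their sizes cannot be compared. The control count depended on single arrays of 5: it was 0 without the 4, the 8 or the 12 h array and 37 without the 0 h array. It was 47 on linear hours. Shares of all genes called in these fits are not given here, so these shifts cannot be assigned to these genes.

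The -5 h array precedes the starvation medium by the hours of the protocol. Control at -5 h lay below all 17 other arrays in 34 of 48 genes (7.83% of all genes), and the median gene was 0.21 lower there than at 0 h. Anln differed most, by 1.04, and Nek2 ran the other way by 0.51. With IL-6 plus HGF the 10 h array was below both its 9 h and its 12 h neighbour in 39 of 48 genes, against 45.2% of all genes. The medians over the 48 genes were 0.86 at 9 h, 0.64 at 10 h and 1.18 at 12 h above control at 0 h. Across all genes that 10 h array had a mean correlation with the other arrays of 0.989, the 24 h arrays of 0.981 with IL-6 plus HGF and 0.983 in control, and the remaining arrays of 0.990 to 0.994.

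Other genes of the cell cycle were read from 3 further lists. At 24 h, 2.15% of all genes were called higher in control and 5.01% with IL-6 plus HGF, so counts of the 2 conditions below do not share a background. Of 79 measured other G2 and mitosis genes, 47 were higher at 24 h in control and 59 with IL-6 plus HGF, 0 were lower in either, and the medians were 1.27 and 1.32. Examples in control were Kif20b with 1.90, Arhgap11a with 1.88 and Ckap2l with 2.05, and with IL-6 plus HGF Zwilch with 2.37 and Ccnf with 1.82. Of 43 DNA replication genes 15 were higher in control (median 0.63) and 35 with IL-6 plus HGF (median 0.93), among them the ribonucleotide reductase gene Rrm1 with 1.19 and 1.50 and the chromatin factor Uhrf1 with 1.05 and 1.92. Of 23 G1 cyclin and E2F genes 5 were higher in control (median 0.49) and 15 with IL-6 plus HGF (median 0.82), with the repressor E2f7 at 1.31 and 2.13. The difference of the 24 h change between conditions passed for 0 genes of any of these lists. At matched hours 7 of the 79 other G2 and mitosis genes were lower with IL-6 plus HGF and 0 higher, with a median of -0.11 (6.45% of all genes lower, a share close to that of this list), among them Cenpp with -0.64, Iqgap3 with -0.63 and Shcbp1 with -0.43. Of the other lists 1 replication gene, the thymidine kinase Tk1 (-0.76), and 1 G1 gene, Rbl2 (-0.55), were also lower, 1 of 43 and 1 of 23, which is below the share of all genes.

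**Figure D5:**
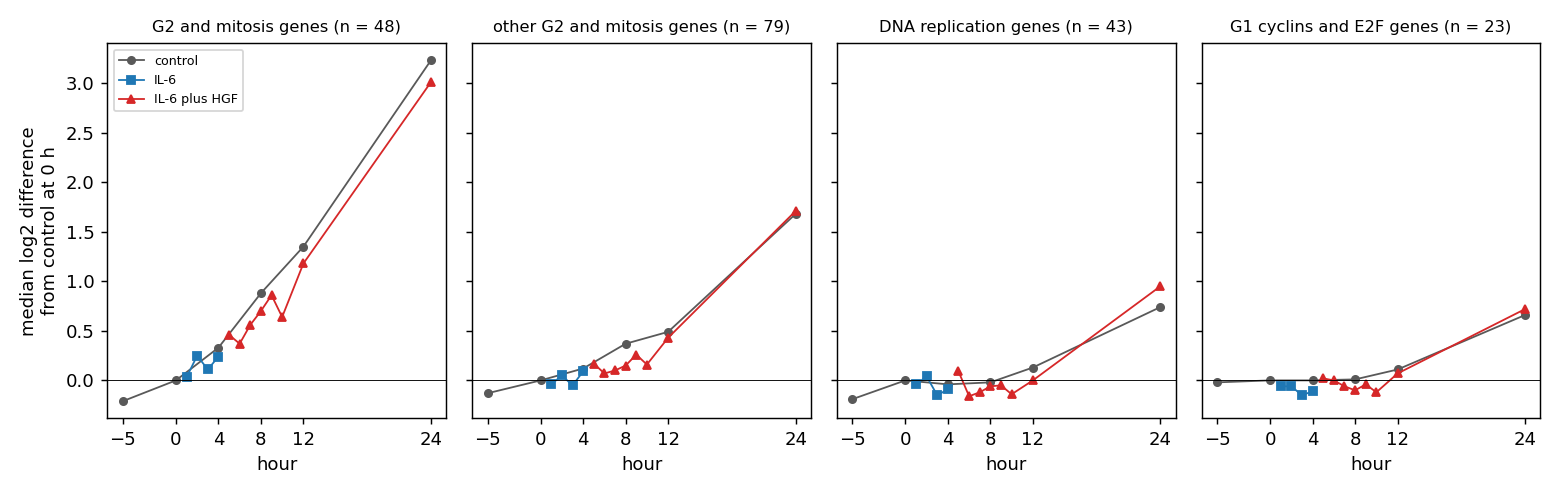
Median log2 difference from control at 0 h (y axis) by hour (x axis) over the G2 and mitosis genes, other G2 and mitosis genes, DNA replication genes, and G1 cyclins and E2F genes, in control (grey), IL-6 (blue) and IL-6 plus HGF (red). The control line of the 48 genes is at 1.35 at 12 h and at 3.23 at 24 h, and the other lists stay lower at both hours.

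The labelled cell type was checked against its markers. All 9 measured hepatocyte markers had a mean above the median gene, and Alb, albumin, read 14.67 to 14.89 on all 18 arrays. Their summed linear signal lay below its earlier range at 24 h, where 76300 to 86700 in control at 0 to 12 h became 65800, and 69600 to 80800 with IL-6 plus HGF at 5 to 12 h became 54500. The median 24 h difference of the 9 markers was -0.60 in control and -1.06 with IL-6 plus HGF. Signs differed, with 7 and 8 of the 9 negative and highest values of 0.33 and 0.18. Asgr1, a receptor subunit of mature hepatocytes, was the lowest in both, at -2.73 and -2.62. At matched hours 5 of 9 were lower with IL-6 plus HGF (background 6.45% of all genes lower). The median there was -0.67, from -1.48 for Cps1 to -0.02. Markers of other liver cells were also read, and whether they lay above background was not tested. Those of stellate cells and fibroblasts summed to 1730 to 1900 in control before 24 h and 2500 at 24 h, and to 1500 to 1850 and then 2220 with IL-6 plus HGF. Of their 13 genes, Col3a1 had the largest 24 h difference in both conditions, 1.09 in control and 0.99 with IL-6 plus HGF. Signs were mixed, however, with 5 of the 13 negative in control (median 0.24, lowest -0.82) and 9 with IL-6 plus HGF (median -0.08, lowest -0.93), none of them past the threshold. The 5 measured cholangiocyte markers summed to 532 to 690 in control before 24 h and 1000 at 24 h. With IL-6 plus HGF they summed to 617 to 934 and then 1020. Krt19 had the largest 24 h difference in each, 2.01 in control and 2.07 with IL-6 plus HGF. Here too signs were mixed, with 4 of the 5 negative at 24 h in control (median -0.13) and 3 with IL-6 plus HGF (median -0.02), none of them past the threshold. Krt19 read 6.13 to 7.55 on the 16 earlier arrays, 9.38 in control at 24 h and 9.13 with IL-6 plus HGF, while Epcam stayed between 6.39 and 6.72. The 15 Kupffer cell and macrophage markers summed to 3800 to 4100 in control before 24 h and 3150 at 24 h, to 2890 to 3090 with IL-6, and to 2870 to 3300 before and 3030 at 24 h with IL-6 plus HGF. The 13 endothelial markers summed to 1990 to 2810 and then 2320 in control, and to 1860 to 2390 and then 1830 with IL-6 plus HGF. Lymphocyte markers summed to between 272 and 331 on every array from 0 h on. Of the listed markers measured, only Cftr among cholangiocyte and Cd3g among lymphocyte markers had a mean under the 10th percentile of all genes. The part of these cells in the rise of the G2 and mitosis genes was not tested.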

How the data were processed

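RNA of primary hepatocytes was labelled with biotin by a one-cycle kit after extraction with an RNeasy kit, per the labels' protocols, and measured on 18 one-colour Affymetrix arrays of 45101 probe sets. The deposited values are on a log2 scale, as read from the values (2.09 to 15.05), and how the authors summarized and normalized them is not given in the sources used here. Over the 18 arrays medians lay between 5.47 and 5.57 and no sorted value was more than 0.118 from the average array, so the log2 values were used as deposited; 0 columns lacked a sample. Of the probe sets 34958 had 1 gene symbol in the platform annotation, 932 had several, which were not used, and 9211 had none. For each gene the brightest probe set by its average was kept, which gave 18194 genes, with no filter on dim genes.

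Groups came from stimulus and hour in the labels. Each test used limma 3.58.1 in R 4.3.3 (lmFit, eBayes) over all genes with Benjamini-Hochberg adjustment. IL-6 was compared with control at 0 and 4 h in a fit of 17 arrays as 4 cells, and IL-6 plus HGF with control at 8, 12 and 24 h in a fit of 6 arrays with hour as a block. The 24 h change was fitted on 8 arrays (stimulus by late or not), and slopes on 8 IL-6 plus HGF or 5 control arrays. The fits were tested on simulated data. The number of arrays limits the precision.

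The genes, their roles and the further lists were chosen with earlier results of these data known, so they are not independent evidence. Values on each array are given for 11 measured fixed genes and for genes past the threshold, at most the 8 largest differences per comparison, 25 in all; of other G2 and mitosis genes at most 6 per comparison are named and of replication and G1 genes at most 3 each. Marker genes of the report's last paragraph are named as examples after their values were seen. Alternatives were 2 other scalings, a filter at the 40th percentile, averaging all probe sets of a gene, a robust fit with an intensity trend, other time scales or reference hours, the fits without 24 h arrays, and leaving out each array.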

Additional observations from a re-analysis of the deposited data

Results flagged for a closer look

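Within the control, IL-6 and IL-6 plus HGF arrays, the highest or lowest array of each of the 25 genes with values by array was compared with its neighbour. The gap, as a share of the range of the group, was set against Dixon's 95% critical value for the number of arrays in the group. In 75 such groups 27 arrays stood apart. Chance flags about 1 in 20 independent groups, but these groups share arrays and most of the genes were named for large 24 h differences or slopes, so the count is a description only.

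Of the 27, 24 were the 24 h array with IL-6 plus HGF as the highest of 8. The share was 0.616 for Ccna2, 0.590 for Ccnb2, 0.611 for Cdk1 and 0.531 for Foxm1. Among kinases it was 0.650 for Plk1, 0.570 for Aurka, 0.749 for Aurkb, 0.707 for Melk and 0.645 for Pbk. Checkpoint and anaphase genes had 0.592 for Bub1, 0.679 for Ttk, 0.558 for Cdc20 and 0.604 for Ube2c. At the kinetochore and spindle it was 0.810 for Cenpe, 0.701 for Cenpf, 0.688 for Tpx2, 0.527 for Nusap1, 0.819 for Dlgap5 and 0.829 for Depdc1a. For the remaining genes it was 0.650 for Birc5, 0.685 for Anln, 0.600 for Ect2, 0.854 for Mki67 and 0.766 for Top2a. The gene with its 24 h control array apart was Cenpe, with 0.760. With IL-6 alone Cenpa was low at 1 h (0.832) and Cenpe at 2 h (0.942), with 5.41 and 4.82 log2.

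The hours are ordered conditions and not replicates, so an array apart is also an hour apart. The same 24 h arrays carry the 24 h change of the report.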

How the results depend on the processing

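Over 90 alternative counts of called genes, 73 stayed within 1.5 times the main count and none changed direction. The number of genes lower at matched hours, 6, was 3 after quantile normalization, 3 with array medians centred, 0 with no hour block, 0 in 4 cells of 17 arrays, where hours are not matched, and 3 to 5 when a pair was left out. The control 24 h count of 47 was 11 to 47 when an array was left out. The IL-6 plus HGF slope count of 46 was 5 without the 24 h arrays and 5 to 47 when any array was left out. The control slope count of 12 was 2 with an intensity trend and robust variance, 47 on linear hours, 25 without the 24 h arrays and 0 to 37 when an array was left out. The cause of these shifts was not tested. Calls over all genes are not given here for most of these alternatives, so the shifts cannot be assigned to these genes. Leaving out an array kept the IL-6 plus HGF 24 h count at 47, and the counts for IL-6 alone and for the difference of the 24 h change were 0 under every alternative run. Both 24 h arrays were above all others for 48 genes under each of 3 alternatives added after the data were seen. Of 804 alternative values of single genes, 682 kept direction and side of the threshold and 122 lost significance. The 2 other scalings moved no array median by more than 0.103. The labels give no replicate numbers, so arrays were paired by hour only, as the block at matched hours. Depth is not defined for arrays; Depdc1a lay under the 10th percentile of mean level, and how background bears on its level was not tested.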

Other observations

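Ccnb1 was not read because its probe sets carry several symbols, but its promoter window was found and holds TTTAAA and 2 CCAAT letters between 120 bases before and 30 after the start.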
